A study of Arabidopsis thaliana with 8 samples.

Results

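The small subunit of the cytosolic ribosome is described here through 44 Arabidopsis thaliana genes, of 27416 genes in the deposited table. They encode ribosomal proteins of the small subunit and the ribosome-bound scaffold RACK1A, and were chosen by identifier, by a list that holds no threshold on a measured value. The list covers 18 families. Described one by one are 37 genes of 15 families, RPSa, RPS2, RPS3, RPS3a, RPS4, RPS6, RPS7, RPS9, RPS10, RPS13, RPS14, RPS16, RPS18, RPS19 and RACK1A, of which all but RACK1A hold 2 to 4 paralogs. Ribosome footprints were measured in root and shoot of seedlings of the ecotype Col, 4 days old and grown in hydroponic culture with sucrose under a long-day light cycle, and collected 3 h after lights on. Root and shoot each gave 4 libraries, 1 for each of 4 extraction buffers. Buffer A held 50 mM KCl, 25 mM MgCl2 and 200 mM Tris. Buffer B held 40 mM KCl, 20 mM MgCl2 and 200 mM Tris. Buffer C held 30 mM KCl, 15 mM MgCl2 and 200 mM Tris. Buffer D held 40 mM KCl, 20 mM MgCl2 and 100 mM Tris. The labels name no mutant, transgene or treatment in either tissue. They do not say whether the libraries of a tissue came from separate plants, so that all p-values measure the spread between these libraries only. Among the listed paralogs, the gene with the most footprints was the same in root and in shoot in 12 of these 14 families, and the shares of paralogs differed between tissues by a median of 2.04 percentage points.

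As background, the small subunit binds the mRNA, holds it in a channel between its head and its body, and reads each codon against a tRNA. A plant genome encodes nearly every one of its proteins by a small family of genes whose products are very similar, so that a plant ribosome can be built from different sets of paralogs. In Arabidopsis, loss of single paralogs is known to cause embryo arrest or altered leaf shape, among them the pointed first leaf mutants. Ribosome footprints are the mRNA fragments that a translating ribosome protects from RNase, and a footprint count per gene therefore combines the level of the mRNA with how heavily it is translated. In whole organs, fewer cells of a type and less RNA per cell cannot be told apart either.

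Each library held between 1120218 and 3410266 counts in root and between 3746348 and 4501213 counts in shoot, and the 44 genes took 21496 to 60280 of them in root and 65431 to 76605 in shoot. All 44 passed the filter on low counts that left 15664 genes for testing. Marker genes followed the labels. All 8 root markers were higher in root and all 8 shoot markers were lower in root. Summed counts of the shoot markers made up 0.0345 to 0.0523% of root libraries and 3.50 to 3.89% of shoot libraries, and those of the root markers 0.265 to 0.320% of root libraries and 0.00689 to 0.0166% of shoot libraries. Of 12 genes of dividing cells, 11 were tested, and with TMM scaling (trimmed mean of M-values) 2 were lower in root and 0 higher. The summed counts of the 12 were 0.0315 to 0.0385% in root and 0.0248 to 0.0307% in shoot. These sums are percent of library totals without TMM scaling, and they lay the other way, higher in root without overlap. The part of cell division in the results below was not tested. A symbol was found for 14 of the 44 genes in the RefSeq table, and the others are named by their locus. Families follow the published naming of plant ribosomal proteins and not an annotation in the files.

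To ask which paralog leads in each tissue, the counts of a gene were divided by the counts summed over the listed members of its family in the same library. Such a share needs no scaling between libraries, but it is a share of counts and not of counts per length, since coding lengths were not used here. In a family of 2 the shares mirror each other. Differences between tissues in the make-up of a family were tested with edgeR's diffSpliceDGE, which compares the fold change of each gene with that of its family, over 89 genes in 32 families of small subunit proteins. Adjusted p-values are by Benjamini-Hochberg, and one under 0.05 counts as passed. Among the listed paralogs the leader was the same gene in both tissues in 12 of the 14 families, and in 10 families it led in all 8 libraries. In 2 families a single paralog took over 90% of counts in both tissues. These were P40 (AT1G72370) of RPSa and AT5G15200 of RPS9. RPS4 and RPS13 were the 2 families whose leader by mean share differed between root and shoot, and in both the paralogs were close to even. The largest difference in a share was 12.4 percentage points, in RPS10, where a paralog outside the list had a higher mean share than the listed leader in shoot once it was counted.

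**Figure D1:**
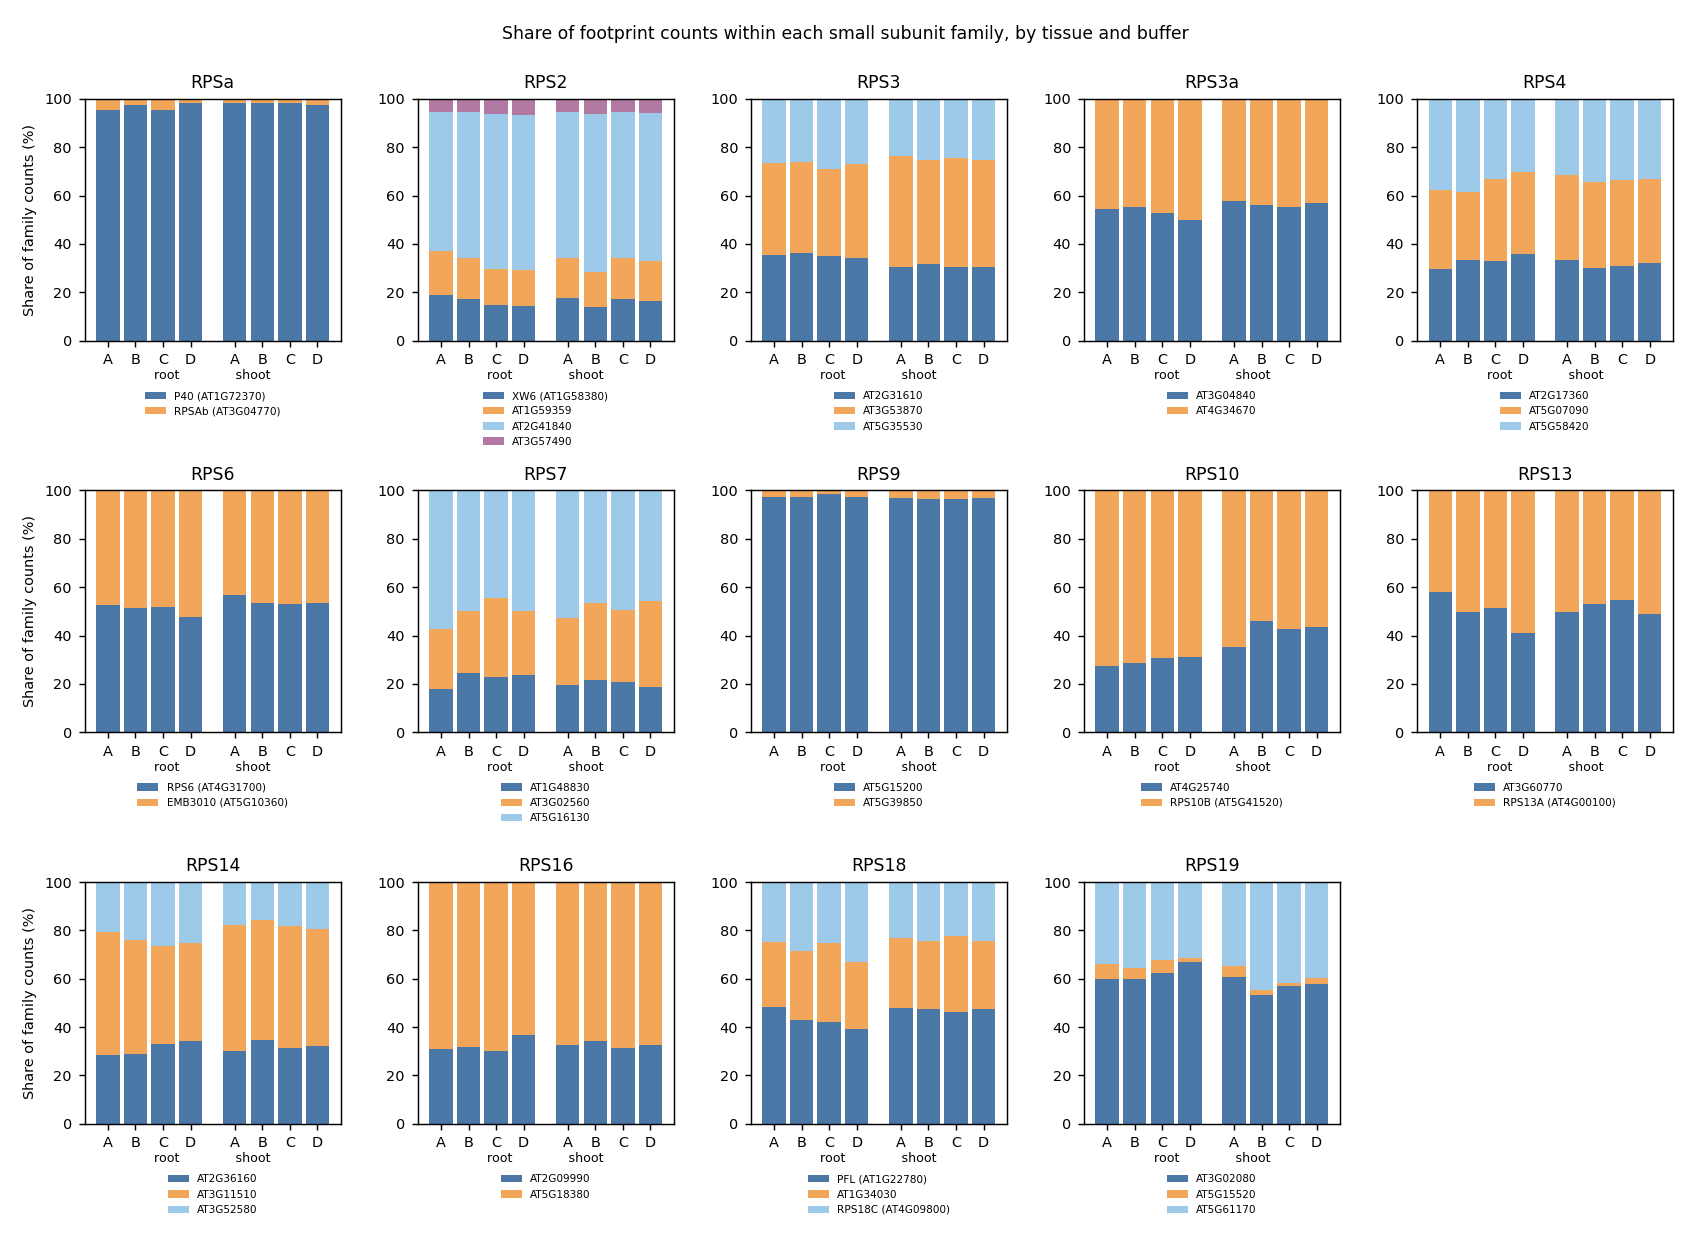
Share of footprint counts (%, vertical axis) of each paralog within its family, 1 panel per family and 1 stacked bar per library, with root buffers A to D left of shoot buffers A to D. RPSa and RPS9 are nearly 1 colour in every bar, RPS13 and RPS4 are close to even, and the lower segment of RPS10, AT4G25740, is shorter in all 4 root bars than in all 4 shoot bars.

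Proteins on the side where the mRNA enters the subunit came from RPS2, RPS3, RPS9 and RPS10. RPS2, RPS3 and RPS9 line the entry of the mRNA channel, and RPS10 sits nearby in the head. In RPS2, AT2G41840 took 57.5, 60.7, 64.0 and 64.3% of the family's counts in root buffers A to D and 60.3, 65.5, 60.3 and 61.0% in shoot buffers A to D. It led in all 8 libraries, and the 2 tissues overlapped. XW6 (AT1G58380) had 16.1 ± 2.13% in root and 16.2 ± 1.58% in shoot (SD, n = 4 each), AT1G59359 had 16.4 ± 1.63% in root and 16.2 ± 1.17% in shoot, and AT3G57490 had 5.88 ± 0.619% in root and 5.84 ± 0.279% in shoot. None of these shares separated the tissues, and the family test of a difference in shares gave an adjusted p of 0.998. XW6 and AT1G59359 belong with AT1G58684 and AT1G58983 to a group of near-identical loci on chromosome 1. The 4 loci held 5470 (XW6), 5902 (AT1G58684), 4669 (AT1G58983) and 5468 (AT1G59359) counts over the 8 libraries. Chi-square tests of each pair over the libraries gave p from 0.455 to 0.926, so that no difference between their profiles was found. The test takes the counts as independent, and reads shared among the loci would by themselves make the profiles alike. How multi-mapping reads were counted is not given in the sources used here, and counts of these loci, and of other near-identical paralogs, cannot be assigned to 1 gene with certainty. With the further pair of loci added to the family total, AT2G41840 still led in all 8 libraries as a single locus. It had 47.1 ± 3.52% in root and 47.0 ± 2.61% in shoot. XW6, AT1G58684, AT1G58983 and AT1G59359 then had mean shares of 12.3, 13.1, 10.5 and 12.5% in root and 12.3, 13.4, 10.6 and 12.3% in shoot. Taken as 1 group, these 4 loci had a slightly higher mean share than AT2G41840 in both tissues, but did not lead in every library. AT2G41840 alone was above the group in root buffers C and D, with 49.2 and 50.6%, and in shoot buffer B, with 50.8%. A read counted at more than 1 of these loci would also enter the group more than once. The leader of RPS2 thus depends on the library and on whether these 4 loci are counted apart.

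RPS3 drew its counts from 3 paralogs, and the balance differed between the tissues (family test, adjusted p = 0.0103). AT3G53870 had 38.1, 37.5, 36.0 and 38.9% in root buffers A to D and 45.6, 42.8, 45.1 and 44.1% in shoot buffers A to D. It led in all 8 libraries, but every root share lay below every shoot share. AT2G31610 lay the other way, with 35.2 ± 0.892% in root and 30.9 ± 0.601% in shoot (SD, n = 4 each), and so did AT5G35530, with 27.2 ± 1.18% in root and 24.7 ± 0.789% in shoot. The 4 root shares of each exceeded all 4 shoot shares. RPS9, known in yeast for its part in the accuracy of decoding, was nearly all AT5G15200. That gene held 97.4, 97.4, 98.4 and 97.3% in root buffers A to D and 97.0, 96.4, 96.6 and 97.0% in shoot buffers A to D. Its root shares all lay above its shoot shares, by a mean of 0.895 points. AT5G39850 made up the rest, 2.35 ± 0.524% in root and 3.25 ± 0.318% in shoot.

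RPS10 had the largest tissue difference. RPS10B (AT5G41520), a gene known in Arabidopsis from a mutant with altered shoot branching, took 72.6, 71.2, 69.5 and 68.9% in root buffers A to D and 64.7, 54.1, 57.5 and 56.3% in shoot buffers A to D. Its partner AT4G25740 took 27.4, 28.8, 30.5 and 31.1% in root and 35.3, 45.9, 42.5 and 43.7% in shoot. RPS10B led in every library, by a wider margin in root, and the tissues did not overlap. A further paralog, AT5G52650, is outside the list. With it in the family total RPS10B had 49.0 ± 3.87% in root and 36.4 ± 4.47% in shoot. AT5G52650 then had 30.5 ± 5.28% in root and 37.5 ± 3.78% in shoot. RPS10B still led the 4 root libraries but only 2 of 4 shoot libraries, and AT5G52650 led the other 2, so that the leader of RPS10 in shoot depends on which paralogs are counted.

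On the side where the mRNA leaves lie RPSa, RPS3a and RPS14. P40 (AT1G72370), a relative of the human laminin receptor precursor, had 95.5, 97.4, 95.4 and 98.1% of RPSa counts in root buffers A to D and 98.2, 98.4, 98.2 and 97.4% in shoot buffers A to D. The ranges overlapped. Its partner RPSAb (AT3G04770) had 3.41 ± 1.36% in root and 1.95 ± 0.420% in shoot (SD, n = 4 each). RPS3a was close to even. AT3G04840 had 54.3, 55.0, 52.8 and 49.7% in root buffers A to D and 57.9, 56.2, 55.3 and 57.1% in shoot buffers A to D. Every root share was below every shoot share, and in root buffer D the other paralog, AT4G34670, led with 50.3%.

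RPS14, which in yeast takes part in the last cleavage of the small subunit rRNA precursor, was led by AT3G11510 in all 8 libraries. AT3G11510 had 51.1, 47.3, 40.7 and 40.5% in root buffers A to D and 52.1, 49.5, 50.8 and 48.4% in shoot buffers A to D, and the ranges overlapped. AT3G52580, the smallest of the 3, had 20.5, 23.9, 26.3 and 25.2% in root and 17.6, 15.7, 17.98 and 19.3% in shoot. All its root shares lay above all its shoot shares. AT2G36160 had 31.1 ± 3.01% in root and 32.2 ± 1.91% in shoot (SD, n = 4 each).

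RPS4, RPS6, RPS7 and RPS13 are proteins of the body. RPS4 binds the rRNA early in assembly, and its 3 paralogs shared the counts nearly equally. AT5G58420 had 37.9, 38.4, 33.0 and 30.4% in root buffers A to D and 31.6, 34.4, 33.6 and 33.1% in shoot buffers A to D. AT5G07090 had 32.5, 28.4, 34.2 and 33.9% in root and 35.0, 35.7, 35.5 and 34.9% in shoot. AT2G17360 had 29.6, 33.2, 32.8 and 35.7% in root and 33.4, 29.8, 30.9 and 32.0% in shoot. By mean share AT5G58420 led in root, with 34.9%, and AT5G07090 led in shoot, with 35.3%. The lead in shoot held in all 4 libraries, whereas AT5G58420 led in root buffers A and B only, AT5G07090 in root buffer C and AT2G17360 in root buffer D. Only AT5G07090 had shares that did not overlap between the tissues, and the family test gave an adjusted p of 0.374.

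RPS13, known from the pointed first leaf 2 mutant of RPS13A (AT4G00100), was split about evenly. AT3G60770 had 58.0, 49.5, 51.4 and 41.1% in root buffers A to D and 49.7, 52.8, 54.6 and 49.1% in shoot buffers A to D, and RPS13A had 42.0, 50.5, 48.6 and 58.9% in root and 50.3, 47.2, 45.4 and 50.9% in shoot. Each paralog led in 2 of 4 libraries of each tissue. The mean share of RPS13A was 50.0 ± 6.96% in root and 48.5 ± 2.62% in shoot (SD, n = 4 each), a difference smaller than either SD, with an adjusted family p of 0.813. The spread was widest in root, where the 95% Wilson interval of AT3G60770 was 55.7 to 60.2% in buffer A, of 1901 family counts, and 37.2 to 45.0% in buffer D, of 611. The intervals cover counting error only and treat reads as independent. Reads amplified by PCR are not independent molecules, so that the intervals can be too narrow even for counting error.

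RPS6, the protein that S6 kinase phosphorylates downstream of TOR, had its counts in nearly equal parts from AT4G31700, whose symbol is RPS6, and EMB3010 (AT5G10360). AT4G31700 had 52.6, 51.3, 51.8 and 47.5% in root buffers A to D and 56.9, 53.4, 53.1 and 53.4% in shoot buffers A to D. Root shares lay below all shoot shares, and EMB3010 led in root buffer D alone, with 52.5%. In RPS7, AT5G16130 led everywhere, with 57.5, 49.9, 44.3 and 49.9% in root buffers A to D and 52.6, 46.6, 49.5 and 45.8% in shoot buffers A to D. The tissues overlapped, and in root the Wilson intervals of buffer A, 55.8 to 59.1%, and buffer C, 42.1 to 46.6%, did not. AT3G02560 had 27.3 ± 3.69% in root and 31.3 ± 3.12% in shoot (SD, n = 4 each), and AT1G48830 had 22.3 ± 2.88% in root and 20.1 ± 1.23% in shoot.

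RPS16, RPS18 and RPS19 are proteins of the head. RPS16 reaches the peptidyl tRNA with its tail, RPS18 touches the large subunit, and RPS19 is known in humans as a gene of Diamond-Blackfan anaemia. AT5G18380 led RPS16 in every library, with 69.0, 68.3, 69.8 and 63.4% in root buffers A to D and 67.2, 65.7, 68.6 and 67.3% in shoot buffers A to D. The ranges overlapped, and AT2G09990 made up the rest, 32.4 ± 2.87% in root and 32.8 ± 1.16% in shoot (SD, n = 4 each). PFL (AT1G22780), named for its pointed first leaf mutant, led RPS18 in every library, with 48.5, 43.0, 42.3 and 39.4% in root and 47.9, 47.3, 46.4 and 47.4% in shoot. RPS18C (AT4G09800) had 27.9 ± 3.78% in root and 23.6 ± 1.11% in shoot, with all root shares above all shoot shares, and AT1G34030 had 28.8 ± 2.55% in root and 29.2 ± 1.55% in shoot. AT3G02080 led RPS19 in every library, with 59.8, 59.9, 62.5 and 67.1% in root and 60.8, 53.4, 57.1 and 58.0% in shoot. AT5G61170 had 33.3 ± 1.86% in root and 40.2 ± 4.16% in shoot, and AT5G15520 had 4.35 ± 2.06% in root and 2.42 ± 1.34% in shoot. The root and shoot ranges of all 3 RPS19 genes overlapped.

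RACK1 is a propeller-shaped scaffold on the head of the subunit that links the ribosome to kinases. Among the listed genes RACK1A stands alone, under its RefSeq symbol ATARCA (AT1G18080). Its level in CPM (counts relative to library size, scaled by TMM, the trimmed mean of M-values) was 738, 821, 1053 and 985 in root buffers A to D, against 1079, 1384, 1194 and 1179 in shoot buffers A to D. On this scale the 4 root values all lay below the 4 shoot values. With library totals alone its log2 fold change, root minus shoot, was 0.062 (edgeR's quasi-likelihood test, adjusted p = 0.673). Set against its 2 paralogs outside the list, RACK1A led in all 8 libraries, with 61.9 ± 4.05% in root and 62.02 ± 1.66% in shoot (SD, n = 4 each). AT1G48630 (symbol RACK1B_AT) had 22.0 ± 3.39% in root and 19.2 ± 0.928% in shoot, and AT3G18130 (symbol RACK1C_AT) had 16.1 ± 1.86% in root and 18.8 ± 2.07% in shoot.

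The make-up of 3 of the 14 families differed between root and shoot by the family test of diffSpliceDGE. They were RPS14 (adjusted p = 0.00775), RPS10 (0.00853) and RPS3 (0.0103). Over all 32 families the share that passed was 21.9%, so that 3 of 14 is near the background. That background is not separate from the listed families, which hold 4 of the 7 families that passed. The shift in RPS14 was towards AT3G52580, that in RPS10 away from AT4G25740 and that in RPS3 away from AT3G53870. The log2 ratio of the root share over the shoot share was 0.44 ± 0.10 for AT3G52580 (SE). It was -0.50 ± 0.14 for AT4G25740 and -0.24 ± 0.073 for AT3G53870. These SEs were taken from F alone and do not include the lower bound that applies to the gene-level p-values. The gene-level test of diffSpliceDGE gave p of 0.0114 for AT3G52580, 0.00789 for AT4G25740 and 0.117 for AT3G53870. None of these passed after adjustment (adjusted p = 0.268, 0.268 and 0.743 in that order). RPS10 and RPS14 did not pass without either library of buffer C (adjusted p = 0.0726 to 0.0852), and RPS3 not without either library of buffer A or of buffer C (0.0725 to 0.102).

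In the main test of single shares, gene by gene in the same fit, 0 of 36 shares passed, where the smallest adjusted p was 0.268, 4 had an unadjusted p under 0.05 and the background was 0.0%. Without root buffer D 1 passed, that of RPSAb. limma's diffSplice passed 5 of 36, which is near the background of 14.6%. These were AT3G53870 (adjusted p = 0.00352) and AT2G31610 (0.0338) of RPS3, AT3G52580 (0.0129) of RPS14, and both RPS10 genes (0.0205), whose shares mirror each other. By range alone, 14 of 36 shares in 8 families did not overlap between root and shoot. Each had a two-sided exact permutation p of 0.0286, the smallest that 4 against 4 libraries can give. Among them were both genes of RPS3a, RPS6, RPS9 and RPS10, whose shares mirror each other, so that each such pair is a single observation. The background was 27.2% over all small subunit families and 20.4% over those outside the list. The highest family p-values were those of RPS2 (0.998), RPS16 (0.896) and RPS13 (0.813), and the mean shares of their genes differed between tissues by 1.56 points or less.

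**Figure D2:**
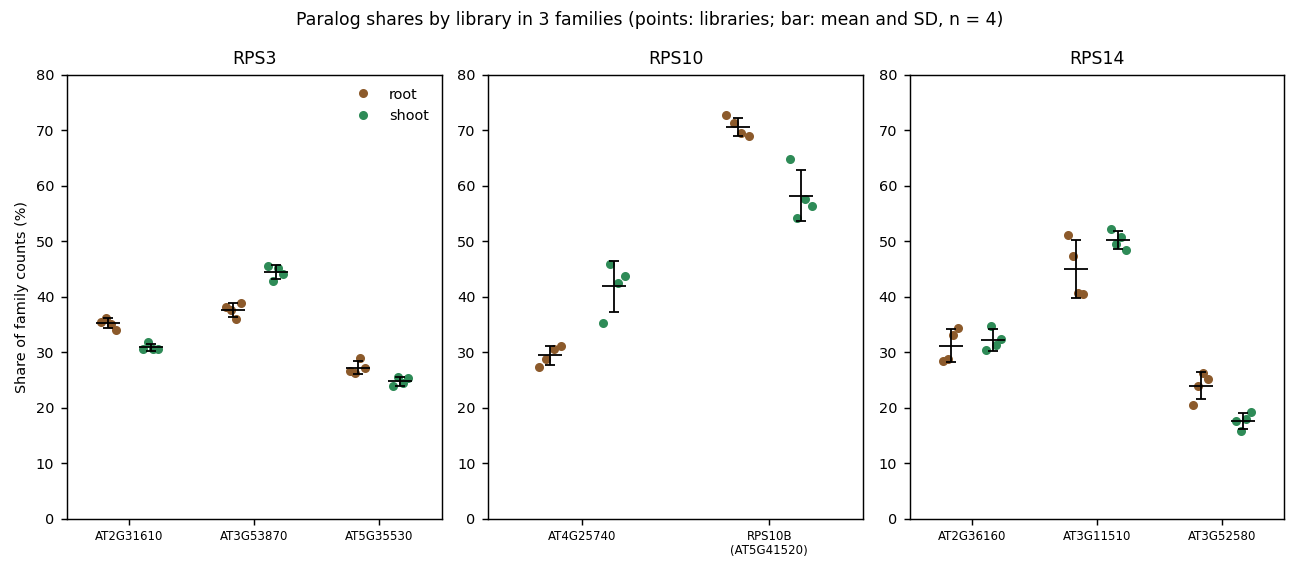
Share of family counts (%, vertical axis) of each paralog in RPS3, RPS10 and RPS14, with 1 point per library, root left of shoot, and bars for the mean and SD (n = 4). The points of AT4G25740, AT3G53870 and AT3G52580 do not overlap between root and shoot, and those of AT2G36160 do.

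The level of each gene was then compared between root and shoot with edgeR's quasi-likelihood test on all 15664 genes. On the TMM scale 27 of the 44 genes were lower in root, 0 were higher and 17 did not pass, where the background was 22.6% lower, 17.8% higher and 40.3% in either direction. The median SE was 0.11 for the 44 genes and 0.42 over all genes tested. Small differences therefore pass more readily among the 44 than in the background. Of the 37 genes described one by one 22 were lower. Without either library of buffer B, 17 of the 44 were lower. Over all genes, 3169 of 16239 were lower without root buffer B and 3078 of 16275 without shoot buffer B. The calls of AT4G34670, AT2G17360, AT5G58420, AT3G02560, AT5G39850, AT3G60770, RPS13A, AT2G36160, AT2G09990, AT5G61170 and ATARCA, 11 of these 22, were lost without at least 1 library, and 11 held in all 8 such fits. Of the 16 genes that led one of the 14 families in root or shoot by mean share, 12 were lower in root, and AT2G41840, AT5G16130, RPS10B and AT3G02080 did not pass. The fold changes of 40 of the 44 genes were negative. The median of the 44 was -0.40 on the log2 scale, root minus shoot. Over all genes tested it was -0.12, with quartiles of -1.08 and 0.65. The direction depends on the scaling. With library totals alone the median of all genes was 0.38 and that of the 44 genes 0.10. Then 1 gene was lower in root, against a background of 17.2%, and 9 were higher, against 30.4%. Relative to the median of all genes the 44 lay 0.28 lower in both, and the same 35 of 44 genes lay below that median under both scalings. A change of scaling moves all genes by nearly the same amount, so that this had to stay nearly the same and is no separate support. The gene lower in root under both was AT4G25740. The 44 genes together held 1.86 ± 0.0690% of all counts in root and 1.74 ± 0.0293% in shoot (SD, n = 4 each), and 1.88 ± 0.0775% in root and 1.83 ± 0.0216% in shoot of counts outside plastid and mitochondrial genes. Those organelle genes held 0.681 to 2.40% of counts in root and 4.13 to 5.95% in shoot. With the organelle genes left out before scaling, 28 of the 44 genes were lower in root, beside 3473 of all 15536 genes tested.

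**Figure D3:**
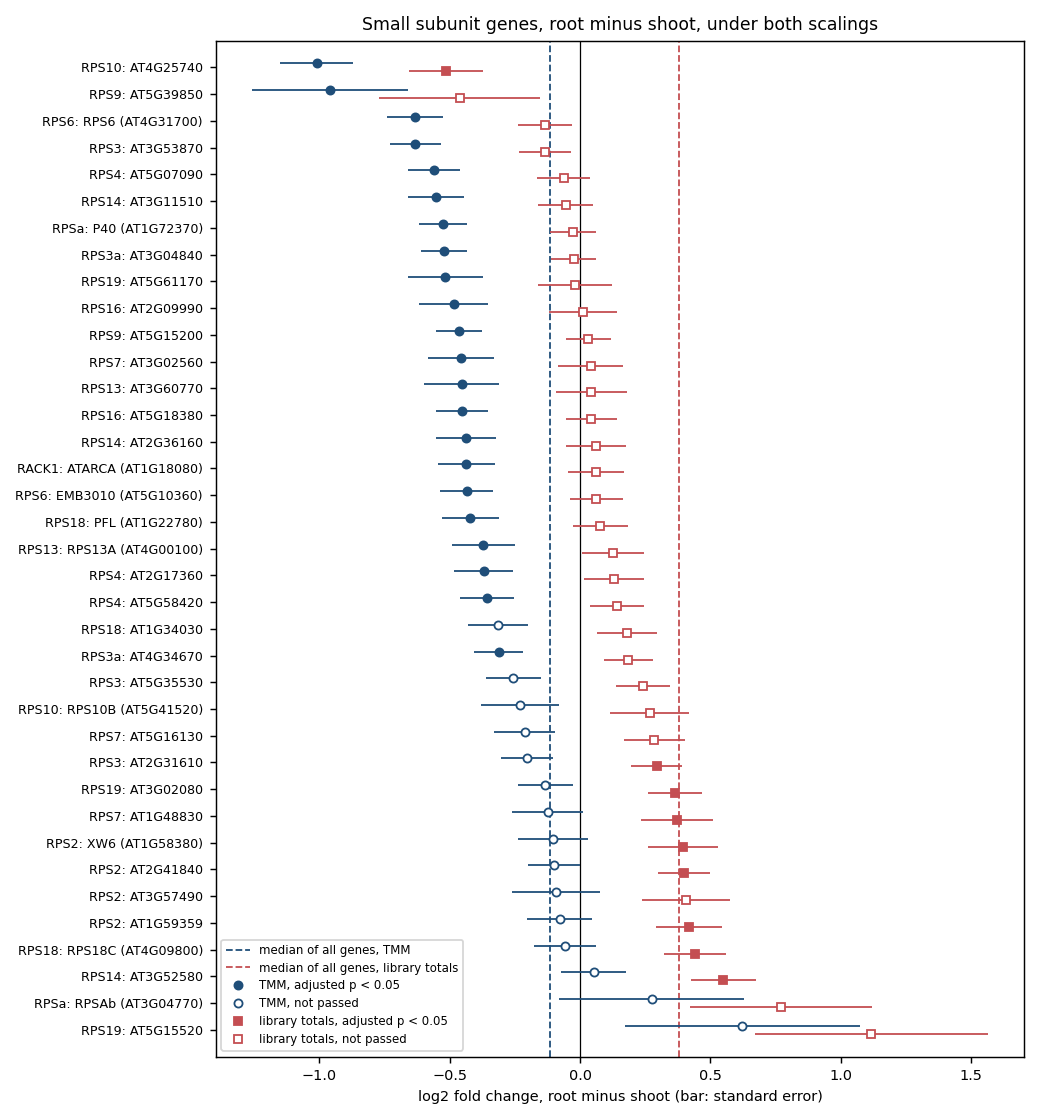
Log2 fold change, root minus shoot (horizontal axis, bars: SE), of the 37 genes described one by one under TMM scaling (circles) and under library totals alone (squares), with filled symbols for adjusted p under 0.05 and dashed lines at the median of all genes tested under each scaling. The 2 sets run in parallel, since a change of scaling moves all genes by nearly the same amount. Left of the dashed line of their scaling lie 29 genes, and AT4G25740 is the gene with filled symbols left of 0 in both.

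By position in the subunit, on the TMM scale, 4 of 11 genes of the entry side, 5 of 7 of the exit side, 8 of 10 of the body and 4 of 8 of the head were lower in root, beside 22.6% of all genes tested, as was ATARCA (-0.44 ± 0.11, SE, adjusted p = 0.00839). None of these calls other than that of AT4G25740 held with library totals alone. The median fold change was -0.23, -0.44, -0.40 and -0.37 in the 4 groups in that order, or -0.11, -0.32, -0.29 and -0.25 relative to the median of all genes. In the exit side group AT3G11510 of RPS14 had 423, 411, 323 and 354 CPM in root buffers A to D and 551, 564, 544 and 546 CPM in shoot buffers A to D. The tissues did not overlap, and its fold change was -0.55 ± 0.11 (SE, adjusted p = 0.00180), or -0.44 relative to the median of all genes and -0.055 with library totals alone. P40, both RPS3a genes and AT2G36160 were the other genes lower in root, from -0.52 to -0.31. In the body group AT4G31700 of RPS6 had 489, 521, 450.1 and 418 CPM in root and 756, 687, 697 and 768 CPM in shoot, again without overlap, and a fold change of -0.63 ± 0.11 (SE, adjusted p = 0.000704), -0.14 with library totals alone. In RPS4, AT5G07090 had 379, 379, 405 and 411 CPM in root and 582, 615, 564 and 558 CPM in shoot, likewise without overlap, at -0.56 ± 0.10 (adjusted p = 0.00116) and at -0.063 with library totals alone. The other RPS4 genes, both RPS13 genes, EMB3010 and AT3G02560 were lower in root too, from -0.46 to -0.36, and AT5G16130 (-0.21) and AT1G48830 (-0.12) of RPS7 did not pass.

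The largest fold change was that of AT4G25740 of RPS10, with 71.0, 109, 83.4 and 88.3 CPM in root buffers A to D and 160.0, 197, 174 and 171 CPM in shoot buffers A to D. All root values lay below all shoot values, and the gene was at -1.01 ± 0.14 (SE, adjusted p = 0.000189), -0.90 relative to the median of all genes. With library totals alone it was at -0.51 (adjusted p = 0.0122). Its partner RPS10B was at -0.23 ± 0.15 (adjusted p = 0.263) and did not pass. The minor RPS9 paralog AT5G39850 had 21.0, 20.7, 12.4 and 18.4 CPM in root and 31.8, 39.6, 37.3 and 31.1 CPM in shoot, without overlap. It was lower in root at -0.96 ± 0.30 (adjusted p = 0.0249), a call lost without either library of buffer B or of buffer C. AT3G53870 of RPS3 had 453, 515, 459.7 and 488 CPM in root and 767, 714, 753 and 730.1 CPM in shoot, and the tissues did not overlap. It and AT5G15200 were the other entry side genes lower in root, with fold changes of -0.63 ± 0.10 for AT3G53870 and -0.47 ± 0.088 for AT5G15200 (SE), which with library totals alone were at -0.13 and 0.033. All 4 RPS2 genes had fold changes between -0.10 and -0.079, close to the median of all genes, and did not pass. Nor did AT2G31610 (-0.20) and AT5G35530 (-0.26) of RPS3.

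At the other end 3 of the 37 genes had fold changes above 0, and none passed on the TMM scale. AT5G15520 of RPS19 had 35.1, 24.8, 27.2 and 7.36 CPM in root buffers A to D and 24.7, 11.97, 8.15 and 15.5 CPM in shoot buffers A to D. The tissues overlapped, since root buffer D lay below every shoot library, and the fold change was 0.62 ± 0.45 (SE, adjusted p = 0.313). The root values of 0 of the 37 genes all exceeded their shoot values, against a background of 19.8%, and those of 25 all lay below them, against a background of 25.3%. These backgrounds, too, are of genes with a larger median SE. RPSAb had 43.96, 25.9, 49.1 and 18.4 CPM in root and 23.3, 27.1, 24.8 and 34.6 CPM in shoot, at 0.27 ± 0.35 (adjusted p = 0.587). AT3G52580 of RPS14 had 170.0, 208, 208 and 220.1 CPM in root and 186, 179, 193 and 218 CPM in shoot, at 0.052 ± 0.13 (adjusted p = 0.780). On library totals it was higher in root, at 0.55 (adjusted p = 0.00399). In the head group the genes lower in root were both RPS16 genes, PFL and AT5G61170, from -0.52 to -0.42, while AT1G34030 (-0.32, adjusted p = 0.0506), RPS18C (-0.056) and AT3G02080 (-0.13) did not pass.

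**Figure D4:**
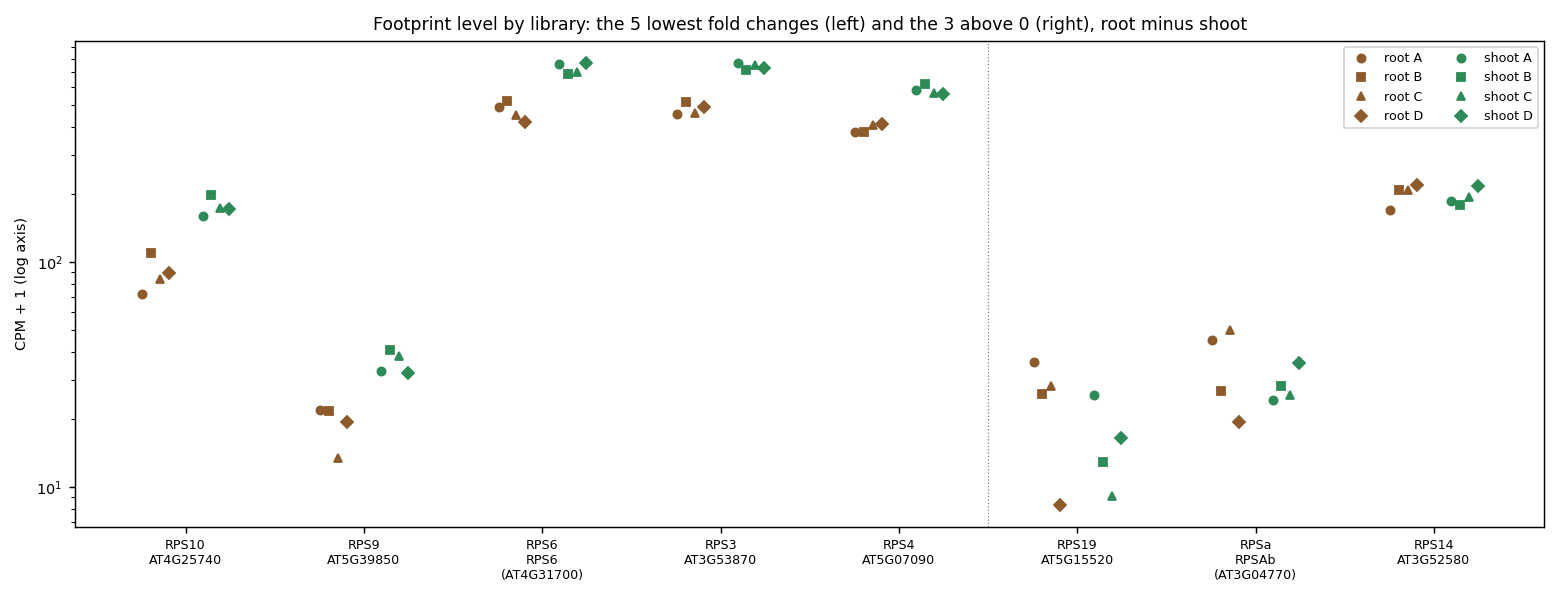
Footprint level (CPM + 1 on a log axis, TMM scaling) of the 5 genes described with the lowest fold changes, left of the dotted line, and of the 3 with fold changes above 0, right of it, with 1 point per library, colour for tissue and shape for buffer, root left of shoot. Root and shoot points separate for AT4G25740, AT5G39850, AT4G31700, AT3G53870 and AT5G07090 and overlap for the others.

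The extraction buffer gave no called difference among the 44 genes. In the test of any difference among the 4 buffers 0 were called, where the background was 0.0575%, and the smallest unadjusted p was 0.206, of AT4G25740. Buffer A minus C, which sets the highest KCl and MgCl2 against the lowest, called 0 with a background of 0.0%, and its smallest p was that of ATARCA, 0.0547, at -0.33. Buffer D minus B, which sets 100 mM Tris against 200 mM, called 0 with a background of 0.0447%. Its smallest p was that of AT5G58420, 0.0604. In each of the 3 tests 0 of the 44 genes had an unadjusted p under 0.05, where 121, 253 and 312 of all 15664 genes did in the same order, so that 0 is near the background, and DESeq2 called 0 as well.

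Small subunit genes outside the list were tested in the same fit. Of 49 genes in other small subunit families 46 were tested, 17 were lower in root and 1 was higher, beside 22.6% lower and 17.8% higher over all genes, with a median of -0.29 beside -0.12. The lowest were AT3G53890 and AT5G27700, listed under RPS21, at -1.04 ± 0.19 and -0.97 ± 0.15 (SE, adjusted p = 0.00138 and 0.000406), and the higher one was AT3G10090, listed under RPS28, at 0.81 ± 0.24 (adjusted p = 0.0182). Of the 6 further paralogs of the listed families, AT5G52650 of RPS10 and AT3G18130 of RACK1 were lower in root, and 4 did not pass. With library totals alone, 3 of the 46 were lower and 11 higher, beside 17.2% and 30.4% of all genes.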

How the data were processed

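Ribosome footprints were counted in 4 root and 4 shoot libraries of Arabidopsis Col, 1 for each tissue and buffer. Per the labels' protocols, RNase digestion of the lysate was followed by size exclusion columns, rRNA depletion and a commercial footprint library kit. The values the authors deposited are raw counts per coding sequence, not normalized. Bowtie2, STAR 2.5.1b and TAIR10 are named, without roles, per the submitters' processing notes. Which program counted, and what it did with multi-mapping reads, is not given in the sources used here.

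Tissue and buffer came from each library's title. Counts were analysed in R 4.3.3 with edgeR 4.0.16 (filterByExpr with a minimum count of 10 and a minimum total of 15, TMM, quasi-likelihood test, terms for tissue and buffer, 3 residual degrees of freedom, Benjamini-Hochberg over 15664 genes, called at an adjusted p under 0.05). A standard error is the absolute log2 fold change over the square root of F. Shares of a family were tested with diffSpliceDGE. Its gene-level test was set as the main one, and the family test comes from the same fit. The gene-level p-values are bounded below by a test with the trended dispersion. An alternative was limma 3.58.1 diffSplice on voom values. DESeq2 1.42.0 was an alternative, as were other scalings, no filter, no block and leaving out each library. Tables, exact permutation tests and Wilson intervals at 95% used Python 3.11.15 with scipy 1.17.1. The tests were also run on simulated counts with known changes, and the outcome is not reported here.

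Symbols came from a RefSeq table of TAIR10.1, used for names only. Genes named with values in every library were the leading paralog of each family in each tissue, all paralogs of families whose leader differed, the 5 genes with the most negative fold changes, the 3 above 0 and RACK1A, all among the 37 described. Others are given as means. The other 3 listed families count in statements on the 44 genes and are not reported here one by one. The 44 genes follow a list of identifiers that uses no measured value, but that list and the other gene lists were set with earlier results of these data known, so that the choice was not independent of the data. Same-buffer libraries were checked for shared deviations and did not pair. Depth ran from 1120218 to 4501213 counts per library.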

Additional observations from a re-analysis of the deposited data

Results flagged for a closer look

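Over 118 sets of 4 libraries, the levels and shares of 8 had 1 library far from the other 3, by Dixon's test at the 95% level. Chance alone flags about 1 set in 20, and 5 of the 8 fell on a library of buffer B. RPS10B stood at 268 CPM in root buffer B, beside 188 to 196 in the other root libraries. In shoot, AT5G58420 of RPS4 stood at 592 CPM in buffer B, beside 525 to 534, and AT1G34030 of RPS18 at 310.0 CPM in buffer C, beside 274 to 276. The share of AT2G41840 in RPS2 was 65.5% in shoot buffer B, beside 60.3 to 61.0%, and that of AT1G59359 was 14.4%, beside 16.6 to 16.9%. AT2G31610 held 31.8% of RPS3 in shoot buffer B, beside 30.5 to 30.6%, and AT4G31700 held 56.9% of RPS6 in shoot buffer A, beside 53.1 to 53.4%. In root buffer C AT5G15200 held 98.4% of RPS9, beside 97.3 to 97.4% in the other root libraries.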

How the results depend on the processing

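The scaling decided the direction of the tissue fold changes. With library totals alone 1 of the 44 genes was lower in root and 9 were higher, beside 17.2% and 30.4% of all genes. Of the 37 fold changes described, 25 turned from negative to positive. On the log2 scale, root minus shoot, they were 0.39 for AT1G58380, 0.42 for AT1G59359, 0.40 for AT2G41840, 0.41 for AT3G57490, 0.29 for AT2G31610, 0.24 for AT5G35530, 0.19 for AT4G34670, 0.13 for AT2G17360, 0.14 for AT5G58420, 0.063 for AT5G10360, 0.37 for AT1G48830, 0.041 for AT3G02560, 0.28 for AT5G16130, 0.033 for AT5G15200, 0.27 for AT5G41520, 0.043 for AT3G60770, 0.13 for AT4G00100, 0.060 for AT2G36160, 0.012 for AT2G09990, 0.044 for AT5G18380, 0.077 for AT1G22780, 0.18 for AT1G34030, 0.44 for AT4G09800, 0.36 for AT3G02080 and 0.062 for AT1G18080. The median of the 44 genes relative to that of all genes held its sign in every alternative, from -0.33 with no replicate block to -0.22 with no filter on low counts, with -0.28 in the main analysis. For the other scalings this had to be so, since they move all genes by nearly the same amount.

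DESeq2 called 27 genes lower in root, beside 4022 of all 21907 genes. Size factors by relative log expression in edgeR, organelle genes left out and no filter each called 28. The counts over all genes were 3583 of 15664, 3473 of 15536 and 3911 of 21907 in that order. AT3G52580 turned to -0.000855 without the filter. Root and shoot libraries share replicate numbers through the buffer. With no replicate block for the buffer 29 genes were lower in root, beside 3791 of all 15664 genes. Without it 5 families had shares that differed, against 3 with it. Deviations of same-buffer libraries correlated at 0.0195, -0.00417, 0.0188 and 0.0200 for buffers A to D, so that the buffer did not pair them.

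Without 1 library in turn, 17 to 26 genes were lower in root, beside 3057 to 3454 of all 16193 to 16360 genes tested. In the same fits 0 to 5 families differed in their shares and 0 to 1 single shares passed. Leaving out the root or the shoot library of one buffer gives nearly the same check, since its partner then has a buffer term to itself. Among the genes described, the 40 calls lost over these 8 fits lay in 11 genes, and 11 kept theirs throughout. Fold changes ran from -0.000293 to 0.62 for RPSAb and from -0.011 to 0.11 for AT3G52580, which was at -0.0077 without root buffer B. The log2 share ratio of AT2G36160 ran from -0.095 to 0.022, and turned positive without either library of buffer B.

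limma's diffSplice passed 5 single shares, near its background of 14.6%, against 0 in the main analysis, and 5 families. With further paralogs in the family totals 3 families still passed. Shares per coding length and the promoter motifs were not run, for want of coding lengths and promoter sequences. Depth limits minor paralogs most, such as AT5G15520 of RPS19, at 7.36 to 35.1 CPM in root and 8.15 to 24.7 CPM in shoot.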
